A study of Homo sapiens with 5 samples.

Results

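The genes of mitochondrial fatty acid oxidation were examined in 5 CUT&Tag peak lists from HepG2, a human liver cancer cell line. They are 10 of the 20037 protein-coding genes used, chosen by function: carnitine transfer (CPT1A, CPT2), the acyl-CoA dehydrogenases (ACADVL, ACADM, ACADS), the trifunctional protein (HADHA, HADHB) and the electron transfer flavoprotein with its dehydrogenase (ETFA, ETFB, ETFDH). A peak was assigned to a gene when it lay within 1 kb of either gene end or inside the gene. HADHA and HADHB start 306 bp apart and share their peaks, so the 10 genes form 9 loci. CUT&Tag cuts and tags DNA where an antibody is bound, and a peak is an interval with more tagged fragments than the caller's local background.

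Each of the 5 groups had 1 library. A pair of them profiled Flag-tagged ENL, as wild type or with the Y78A substitution, and the others profiled H3K9bhb, H3K9ac and H3K9cr. ENL is a chromatin protein whose YEATS domain binds acylated lysines, and Y78A changes a tyrosine of that domain to alanine. H3K9bhb, H3K9ac and H3K9cr are β-hydroxybutyrylation, acetylation and crotonylation of lysine 9 of histone H3. Per the design text, HepG2 cells stably expressing the tagged protein were used with antibodies to Flag or to H3K9bhb. The labels and design text do not say whether the cells of the H3K9ac and H3K9cr libraries also carried Flag-ENL, which promoter drove it, whether a line was 1 clone, or whether any treatment was given. Without replicates no difference between libraries could be tested, and intervals below are exact Poisson 95% intervals for counting error only.

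The lists held 11394 (wild type), 5422 (Y78A), 31493 (H3K9ac), 9176 (H3K9bhb) and 3852 (H3K9cr) peaks on the standard chromosomes. Median summit counts, recovered from the deposited fold and p, ran from 21 to 33 fragments. H3K9ac lay at a gene end of 6 of 11 hepatocyte marker genes, HNF4A and FOXA2 among them but not ALB or AFP, and of 1 of 10 markers of other cell types (PECAM1). Since 56.4% of all protein-coding genes had H3K9ac at an end, the hepatocyte count is near the share of all genes and the count for other cell types below it.

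Mitochondria burn fatty acids in a repeating cycle. CPT1A, on the outer membrane, links long acyl chains to carnitine, and CPT2, on the inner membrane, returns them to coenzyme A. An acyl-CoA dehydrogenase matched to the chain length opens each turn, and for long chains the trifunctional protein carries out the remaining steps. The electrons taken by the dehydrogenases pass to electron transfer flavoprotein and then through ETFDH to ubiquinone. In fasting liver the acetyl-CoA made in this way feeds the synthesis of β-hydroxybutyrate, the ketone body from which β-hydroxybutyryl marks derive.

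Wild type ENL lay at a gene end of 8 of the 10 genes, all but CPT2 and ACADVL, and 28.6% of all protein-coding genes had such a peak. Y78A lay at 3 (HADHA, HADHB and ETFB), with 14.6% of all genes. H3K9ac was found at a gene end of 8 genes, against 56.4% of all genes, and the remaining CPT1A and ACADVL had it inside the gene. H3K9bhb was at 5 genes (ACADM, ETFA, ETFDH, HADHA and HADHB), with 23.8% of all genes, and inside ETFB. H3K9cr was at HADHA and HADHB, with 4.49% of all genes, and inside ETFB. With peaks inside the gene counted too, wild type ENL stayed at 8 genes (35.9% of all genes), Y78A at 3 (19.1%), H3K9ac reached 10 (64.8%), H3K9bhb 6 (31.2%) and H3K9cr 3 (9.34%). These are counts over few genes, and they show only how the list compares with the whole table.

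**Figure D1:**
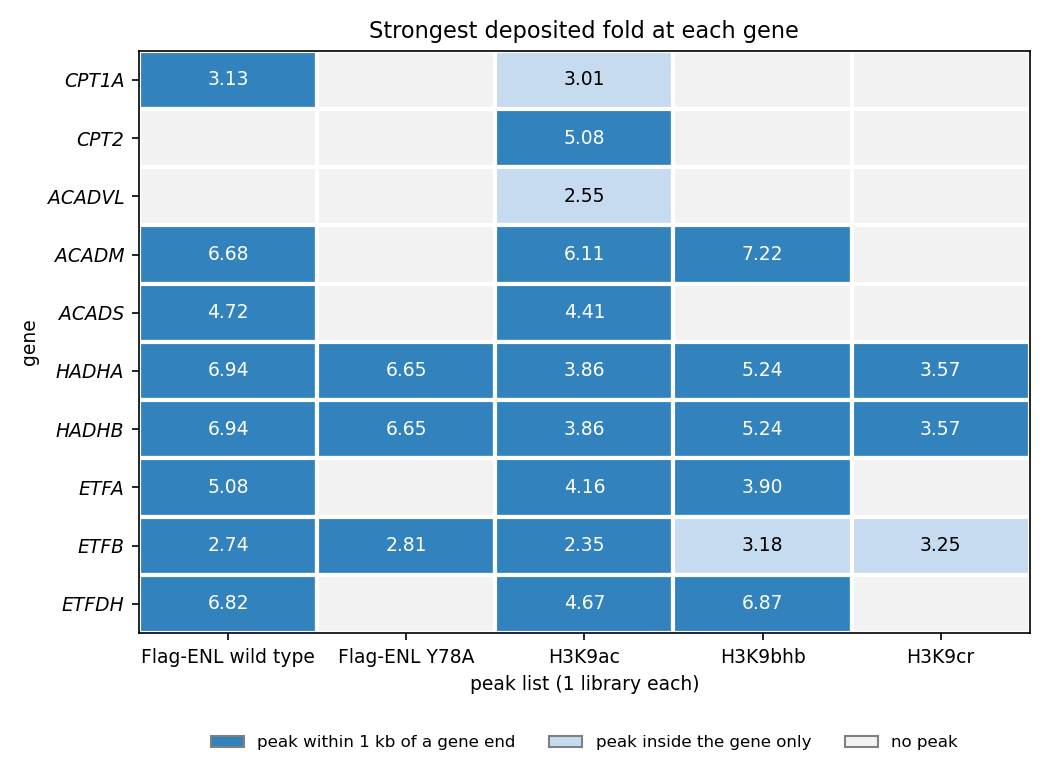
Rows are the 10 genes and columns the 5 peak lists, 1 library each; dark cells hold a peak within 1 kb of a gene end, light cells a peak inside the gene only and grey cells none, and the number is the highest deposited fold there. HADHA and HADHB fill all 5 columns with 1 shared set of peaks, whereas CPT2 and ACADVL have H3K9ac alone.

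**Figure D2:**
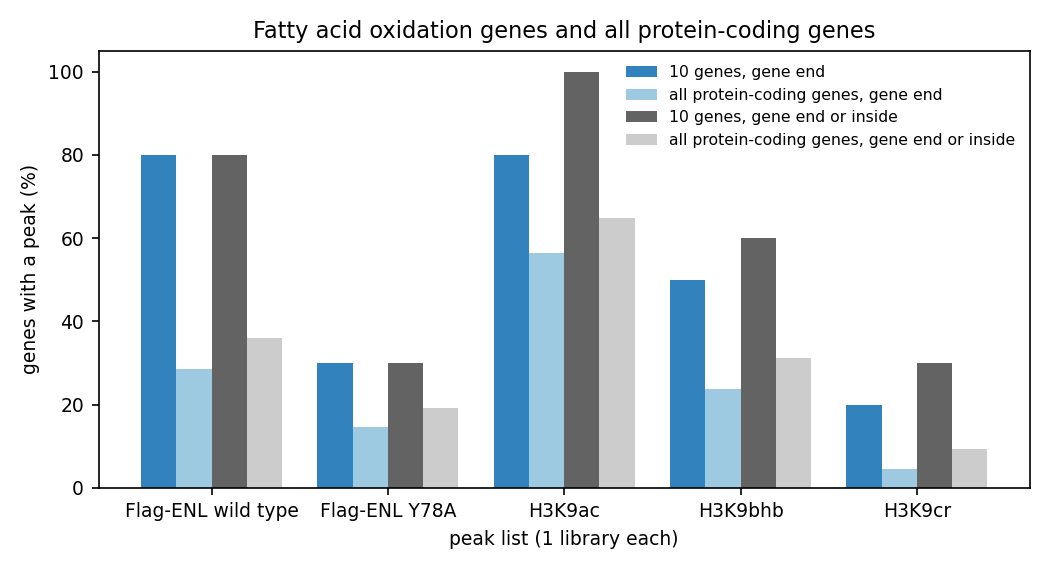
Bars give the percent of genes with a peak (axis from 0), for the 10 fatty acid oxidation genes and for the 20037 protein-coding genes, by gene end and by gene end or inside, in each of the 5 lists. The bars of the 10 genes stand above those of all genes in each list, with 8 genes for wild type ENL and 2 for H3K9cr at gene ends. Because HADHA and HADHB share their peaks, the 2 H3K9cr genes rest on 1 distinct gene-end peak and the 3 Y78A genes on 2.

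Each of the 5 genes with H3K9bhb at a gene end also had wild type ENL there, as did 85.8% of all genes with H3K9bhb, and H3K9ac, as did 98.6%, so these counts are close to what is common among H3K9bhb genes. Over all genes, 20.4% had wild type ENL with H3K9bhb and 20.2% had all 3. Among the 8 genes with wild type ENL, Y78A was present at 3, where 49.8% of all wild type genes had it, and H3K9bhb at 5, where 71.3% did. H3K9ac was present at 7 of those 8, where 98.0% of wild type genes had it, and CPT1A was the exception. Of the 8 genes with H3K9ac, 7 had wild type ENL (49.7% of H3K9ac genes) and 5 had H3K9bhb (41.6%). HADHA and HADHB had all 5 lists at a gene end, as did 3.31% of all genes.

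The carnitine transferases differed in which list marked them. CPT2 (chr1:53196824-53214197) carried a single peak, H3K9ac over its start (chr1:53196616-53197893), with a deposited fold of 5.08 and 50 summit fragments (37.1 to 65.9). That fold exceeded the strongest one at 81.8% of genes with H3K9ac at an end. No ENL, H3K9bhb or H3K9cr peak lay at CPT2 or within 3 kb of it.

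CPT1A (chr11:68754620-68844277) was the reverse at its annotated outer start. A wild type ENL peak lay 128 bp inside that start, with a fold of 3.13 and 32 fragments (21.9 to 45.2), and H3K9ac did not overlap it. Its fold was higher than at only 2.41% of wild type genes, while its local background, 9.53 fragments, was above that of 90.3% of wild type gene-end peaks. H3K9ac instead lay inside the gene, 3145 and 4678 bp from that start, at folds of 2.56 and 2.78, and a smaller peak stood 79781 bp from it at a fold of 3.01. The promoter table lists no inner start for CPT1A, and whether these H3K9ac peaks lie at an unlisted start was not tested.

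Just outside the 1 kb window of CPT1A, 3 lists met at 1 site. Wild type ENL had a summit 1406 bp upstream of the start (fold 4.07, 37 fragments), H3K9bhb 1428 bp upstream (fold 3.97, 27 fragments) and Y78A 1374 bp upstream (fold 3.74, 24 fragments). None of these counts for CPT1A under the 1 kb rule.

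Among the dehydrogenases, ACADM had ENL with both H3K9ac and H3K9bhb, ACADS had ENL with H3K9ac, and ACADVL had H3K9ac only. ACADM, which encodes the medium-chain enzyme (chr1:75724709-75763679), had a wild type peak at chr1:75724224-75724929 with a fold of 6.68 and 20 fragments (12.2 to 30.9). Its H3K9bhb peak had a fold of 7.22 and 22 fragments (13.8 to 33.3), and its H3K9ac peak a fold of 6.11 and 51 fragments (38.0 to 67.1). By fold they stood above the strongest one of 82.6% of wild type genes, 92.7% of H3K9bhb genes and 93.7% of H3K9ac genes, and by p above 58.0%, 80.8% and 93.3%. The wild type local background was low, 2.14 fragments, above that of 16.7% of wild type gene-end peaks. All 3 summits lay upstream of the start, 80 bp away in wild type ENL, 133 bp in H3K9bhb and 245 bp in H3K9ac. An end of the SLC44A5 gene, its start or its other end, lies 693 bp away, within 1 kb of these peaks, so they are not assigned to ACADM alone.

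ACADS, the short-chain enzyme (chr12:120725826-120740008), had a narrow wild type peak of 252 bp with its summit 55 bp inside the start, a fold of 4.72 and 16 fragments (9.15 to 26.0). The H3K9ac summit stood 59 bp inside the start, 4 bp from the ENL summit, at a fold of 4.41 and 53 fragments. A second, weaker H3K9ac peak (fold 2.30) lay 1273 bp inside. No H3K9bhb or Y78A peak was listed at ACADS.

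ACADVL, the very-long-chain enzyme (chr17:7217125-7225266), has a pair of starts in the RefSeq promoter table, the inner one 2813 bp from the outer. Its only peak, H3K9ac at chr17:7219651-7221179, covered the inner start with its summit 732 bp downstream, at a fold of 2.55 and 60 fragments. An end of the neighbouring gene DLG4 also lies in that peak. Upstream of the outer start, beyond the window, wild type ENL (fold 4.03, summit 2592 bp away), H3K9bhb (fold 4.35, 2549 bp), 2 Y78A peaks (folds 4.25 and 4.27) and a weak H3K9ac peak (fold 2.08) lay inside DLG4.

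The trifunctional protein genes shared the strongest wild type peak of the 10 genes by fold and by p. HADHA, the alpha subunit (chr2:26190635-26244632), and HADHB, the beta subunit (chr2:26244939-26290465), are transcribed away from each other. The bases upstream of HADHB are shown because all 5 summits lie in them; capitals mark GC boxes (GGGCGG, either strand), and the RefSeq sequence is chr2:26244689-26244938, plus strand, GRCh38.p14.
HADHB: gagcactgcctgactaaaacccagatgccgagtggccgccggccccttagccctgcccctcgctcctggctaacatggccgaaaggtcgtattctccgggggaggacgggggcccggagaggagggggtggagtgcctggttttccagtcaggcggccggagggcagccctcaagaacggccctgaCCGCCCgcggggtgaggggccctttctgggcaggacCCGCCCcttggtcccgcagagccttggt

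Over this gap wild type ENL (chr2:26244533-26245213) had a fold of 6.94 and 40 fragments (28.6 to 54.5), and Y78A (chr2:26244437-26245138) a fold of 6.65 and 26 fragments (17.0 to 38.1). The relative depth of the Y78A list was 0.841 times the wild type (from the commonest background level of each list), which scales the 40 wild type fragments to 33.6 (24.0 to 45.8), so the counting intervals of the ENL libraries overlapped. H3K9ac had a fold of 3.86 with 87 fragments, H3K9bhb 5.24 with 28 and H3K9cr 3.57 with 26. Within their own lists these folds exceeded the strongest one of 86.2% (wild type), 84.7% (Y78A), 55.4% (H3K9bhb), 50.6% (H3K9ac) and 36.5% (H3K9cr) of genes with a gene-end peak. By p the peaks stood above 88.8%, 81.4%, 71.6%, 93.8% and 62.5% of such genes in that order. Seen from HADHB, the summits lay 118 bp (H3K9cr), 134 bp (H3K9ac), 142 bp (Y78A), 167 bp (wild type) and 193 bp (H3K9bhb) upstream. The H3K9ac peak, 1700 bp wide, covered both starts, and the H3K9cr peak, 221 bp wide, covered that of HADHB only.

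For comparison, the upstream bases of ACADM, with ENL, H3K9bhb and H3K9ac summits in the window, and of CPT2, with H3K9ac alone over its start, are printed with the ETFB window described below. Each is the RefSeq sequence of the 250 bases before the outer start on GRCh38.p14, on the gene's strand (ACADM chr1:75724459-75724708, plus; CPT2 chr1:53196574-53196823, plus; ETFB chr19:51366389-51366638, minus). Capitals mark matches, on either strand, to the GC box GGGCGG, the CCAAT box CCAAT, the ETS core CCGGAAG, the core of the NRF1 site TGCGCA, the DR1 element, the TATA box TATAAA or the E-box CACGTG, and neighbouring matches may overlap.
ACADM: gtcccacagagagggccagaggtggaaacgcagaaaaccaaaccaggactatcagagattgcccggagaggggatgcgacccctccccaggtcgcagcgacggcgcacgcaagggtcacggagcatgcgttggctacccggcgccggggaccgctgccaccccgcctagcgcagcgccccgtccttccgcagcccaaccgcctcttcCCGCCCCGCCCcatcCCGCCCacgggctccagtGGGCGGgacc
CPT2: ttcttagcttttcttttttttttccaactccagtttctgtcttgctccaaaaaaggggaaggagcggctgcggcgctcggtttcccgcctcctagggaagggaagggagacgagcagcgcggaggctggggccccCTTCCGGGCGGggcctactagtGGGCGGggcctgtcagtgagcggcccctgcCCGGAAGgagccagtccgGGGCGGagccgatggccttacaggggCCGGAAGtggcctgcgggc
ETFB: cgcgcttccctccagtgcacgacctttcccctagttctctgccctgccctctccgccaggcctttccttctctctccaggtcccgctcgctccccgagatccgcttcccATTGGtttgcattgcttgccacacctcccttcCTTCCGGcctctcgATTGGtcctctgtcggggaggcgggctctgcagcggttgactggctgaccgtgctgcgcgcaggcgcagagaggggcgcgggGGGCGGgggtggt

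ETFDH, the ubiquinone-linked dehydrogenase (chr4:158672296-158709623), had a wild type peak with its summit 6 bp outside its lower-coordinate end, a fold of 6.82 and 23 fragments (14.6 to 34.5). H3K9bhb stood 147 bp outside that end at a fold of 6.87 and 28 fragments (18.6 to 40.5). The H3K9ac peak was 2107 bp wide with a fold of 4.67 and 40 fragments, and its summit lay 1304 bp outside, within C4orf46. An end of C4orf46 lies 239 bp from ETFDH. ETFDH is not among the promoter entries, so its strand was not used.

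ETFA, the alpha subunit of the flavoprotein (chr15:76215353-76311469), had wild type ENL 48 bp inside its start with a fold of 5.08 and 21 fragments (13.0 to 32.1). H3K9bhb was 83 bp inside the start with a fold of 3.90 and 18 fragments (10.7 to 28.4), a fold above that of only 12.8% of H3K9bhb genes. H3K9ac was 64 bp upstream at a fold of 4.16 and 60 fragments, and a small H3K9ac peak (fold 4.21, 15 fragments) lay deep inside the gene.

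ETFB, the beta subunit (chr19:51345155-51366388), carried more peaks than any other of the 10 genes in 4 of the lists: 6 for wild type ENL, 5 for Y78A, 6 for H3K9ac, 2 for H3K9bhb, with 1 for H3K9cr. As many wild type peaks or more were found at 0.225% of protein-coding genes, and as many Y78A peaks or more at 0.0799%. For the histone marks these shares were 2.31% (H3K9ac), 5.44% (H3K9bhb) and 9.34% (H3K9cr). Over the outer start, wild type ENL had 93 fragments (75.1 to 114) at a fold of 2.74, Y78A 52 (38.8 to 68.2) at 2.81 and H3K9ac 80 (63.4 to 99.6) at 2.35. These folds are low although the counts are high: the median local background at the wild type peaks was 31.6 fragments, 24.5 times the commonest level of the list and above 99.7% of wild type gene-end peaks. The same ratio was 14.8 for H3K9ac, 13.9 for Y78A, 7.97 for H3K9bhb and 5.48 for H3K9cr. What raised the background over this locus was not tested.

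The listed ENL and H3K9ac peaks did not share all their sites within ETFB. The H3K9ac background was high there (31.4 to 34.8 fragments at its peaks), and whether weaker H3K9ac signal went uncalled was not tested. Wild type ENL, Y78A and H3K9bhb met 3433 bp inside the outer start (the Y78A and H3K9bhb summits; wild type 3294 bp) and again deeper in the gene (15386 bp inside for Y78A, 15346 bp for wild type and 15049 bp for H3K9bhb), and no H3K9ac peak overlapped them. At the inner annotated start, 11546 bp from the outer, wild type ENL (84 fragments, summit 150 bp upstream) and Y78A (43 fragments, 69 bp upstream) covered the start, with no peak of a histone mark over it. Close by, 11923 bp from the outer start, wild type ENL (67 fragments, fold 2.28), Y78A (57 fragments, fold 3.76), H3K9ac (fold 2.50) and the only H3K9cr peak of the gene (fold 3.25) lay together. H3K9bhb had no peak at the outer start, and 1 beyond the window 1194 bp upstream, at a fold of 3.47, where wild type ENL, Y78A and H3K9ac had peaks too. An end of the neighbouring gene CLDND2 lies 350 bp from ETFB, within 1 kb of the peaks over the outer start.

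**Figure D3:**
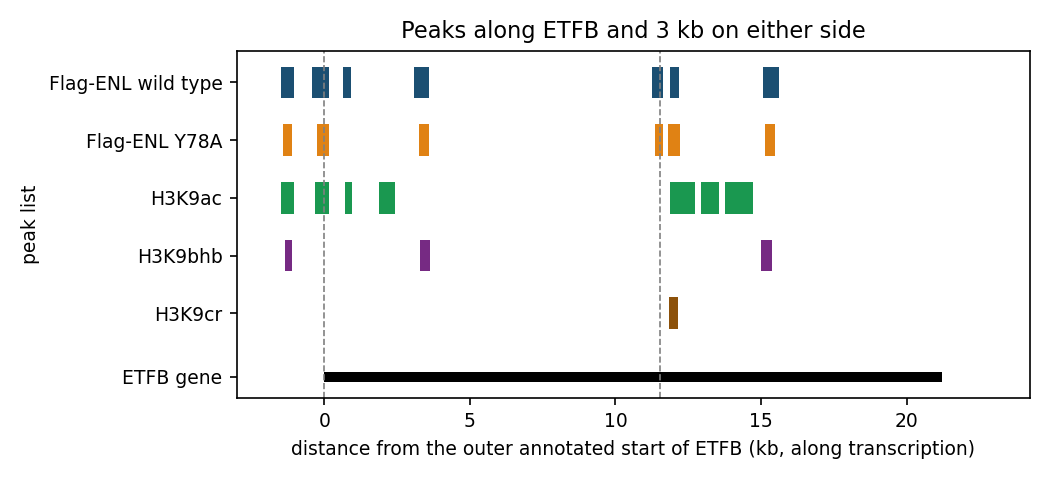
Horizontal axis, distance in kb from the outer start of ETFB along its transcription; rows, the 5 peak lists, with bars to scale for peaks and a black bar for the gene; dashed lines mark the outer and the inner annotated start. Wild type ENL and Y78A bars stand at both starts, and the H3K9bhb bars pair with ENL bars that have no H3K9ac bar, except upstream of the gene.

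No Y78A peak was listed at the gene ends of 5 genes with wild type ENL: CPT1A, ACADM, ACADS, ETFA and ETFDH. The wild type list is the longer one: with every list shortened to its 3852 peaks of highest −log10 p, wild type ENL was at 4 of the 10 genes (11.9% of all genes) and Y78A at 3 (10.7%), and ETFDH was then the only one of the 10 with wild type ENL and without Y78A. Counted by peaks, 2 of the 8 distinct wild type gene-end peaks were overlapped by Y78A, where 46.8% of all wild type gene-end peaks were, and these were the peaks over the HADHA and HADHB starts and over the outer ETFB start. H3K9bhb overlapped 4 of the 8 (50.0%, with 66.9% of all) and H3K9ac 7 (87.5%, with 94.3% of all). All 4 wild type peaks inside ETFB were overlapped by Y78A.

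Whether wild type counts would have been called at the depth of the Y78A list was computed for the 6 gene-end peaks without an overlapping Y78A peak. The wild type counts were scaled by 0.841, and the smallest count that would reach the weakest p of the Y78A list was found at the wild type background scaled in the same way. At ETFDH the scaled count was 19.3 (12.3 to 29.0) against a needed 11, and at ACADM 16.8 (10.3 to 26.0) against 10. At these genes the whole interval of the scaled wild type count stood above the needed count. At ETFA (17.7, needed 12), ACADS (13.5, needed 11), CPT1A (26.9, needed 23) and the ETFB peak 839 bp inside the gene (59.7, needed 54) the scaled count was also above the needed one, but the interval reached below it. The scaled background is itself approximate: at the Y78A peaks that were called it was higher than the listed one, 28.0 against 17.9 at the ETFB start and 4.13 against 3.06 at HADHA and HADHB. A lower background lowers the needed count, and no Y78A count is known where no peak was listed. The peaks were chosen because wild type ENL was called there, so a scaled count above the needed one was likely beforehand. It was also above at all 4 gene-end peaks without H3K9bhb and all 7 without H3K9cr. The intervals leave out counting error in the Y78A library, and whether Y78A binding differed at these sites was not tested.

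**Figure D4:**
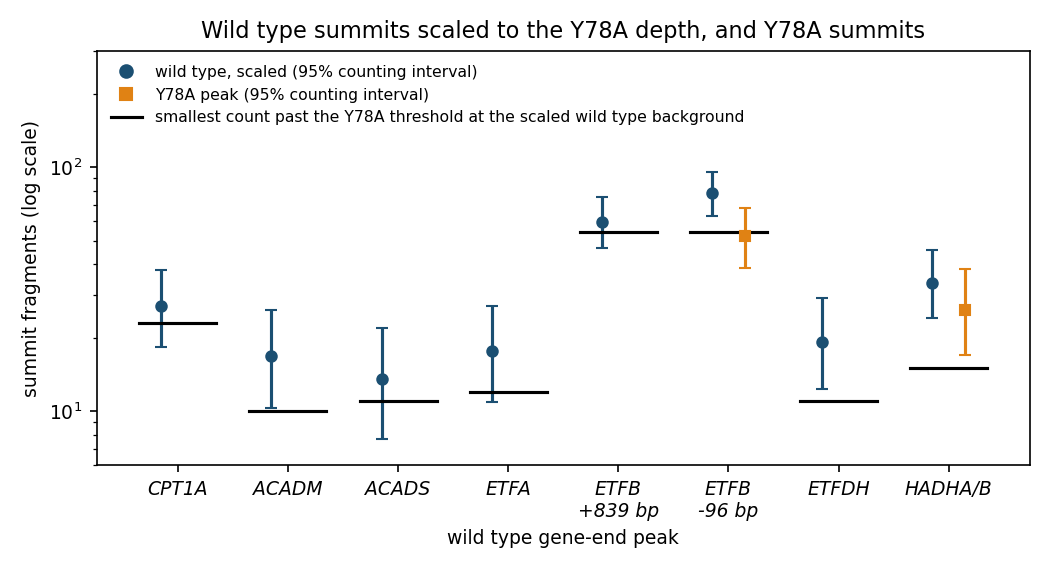
Vertical axis, summit fragments on a log scale; horizontal axis, the 8 wild type gene-end peaks; circles, wild type counts multiplied by 0.841, and squares, Y78A counts where a peak was listed, both with 95% counting intervals; black lines, the smallest count that would pass the weakest Y78A p at the scaled wild type background. The ACADM and ETFDH intervals lie above their lines, and the Y78A count at the ETFB start, 52, is below the line of 54, its listed background of 17.9 being lower than the scaled 28.0.

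Peaks at gene ends sat at starts. Of the 9 genes whose strand the promoter table gives, wild type ENL was within 1 kb of the start in 7, H3K9ac in 7, H3K9bhb in 4, Y78A in 3 and H3K9cr in 2, and no list had a peak at the other end of any of them. Over all genes longer than 2 kb with a wild type gene-end peak and a known strand, 96.6% had it at the start and 6.23% at the other end. The shares at the start were 97.1% for H3K9ac, 96.5% for H3K9bhb, 96.0% for Y78A and 94.9% for H3K9cr, and those at the other end 8.78%, 5.22%, 6.09% and 5.42% in that order. Where wild type ENL and H3K9bhb overlapped at the gene ends, their summits lay 26 to 141 bp apart (median 44 bp over 4 sites; 63 bp over all such gene-end peaks). Wild type and Y78A summits were 9 and 25 bp apart, and wild type and H3K9ac summits 4 to 1298 bp (median 54 bp over 7 sites; 139 bp over all), the widest gap being at ETFDH. The wild type peaks were 251 to 706 bp wide (median 574.5 bp, against 441 bp for all wild type gene-end peaks), and the H3K9ac peaks 262 to 2107 bp (median 966.5 bp, against 807 bp).

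**Figure D5:**
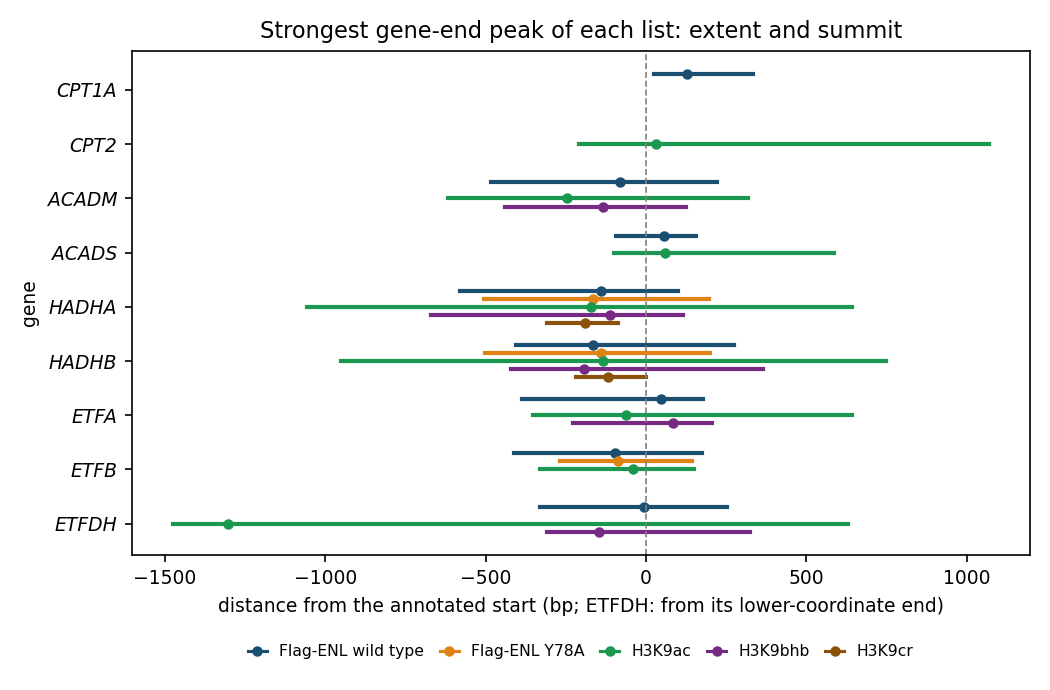
Horizontal axis, distance in bp from the annotated start (for ETFDH, from its lower-coordinate end); lines give the extent and dots the summit of the strongest gene-end peak in each of the 5 lists. All the summits shown stand within 250 bp of the marked end except H3K9ac at ETFDH, 1304 bp away.

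The promoter table held 9 of the 10 genes. In the 250 bases before the outer start, GC content was 44.4% at CPT1A and 49.6% at ACADVL and lay between 62.8% (ACADS) and 70.8% (ACADM) at the others, with a median of 62.0% over 22199 windows of protein-coding genes. The ratio of observed to expected CpG was 0.153 at the outer ACADVL start and 0.784 at its inner, acetylated start, 0.954 at ACADS, 0.936 at ETFA, 0.812 at ACADM, 0.719 at ETFB, 0.691 at CPT2, 0.678 at HADHA, 0.57 at HADHB and 0.569 at CPT1A. The median over all windows was 0.711, and 5 of the 9 outer starts were below it. Counting any window of a gene, GC boxes were found at 8 of the 9 genes (53.7% of all windows) and not at CPT1A. The count is by gene and the share by window. At ACADVL the boxes were in the inner window only, and the HADHA box is a site also counted for HADHB. CCAAT boxes were found at ETFA and ETFB (32.7%), the ETS core at CPT2 and ETFB (10.7%), the NRF1 core at ETFA (8.32%) and the TATA box at ACADVL (9.0%). The DR1 element, a site of the fatty acid receptor PPAR alpha with RXR, was in none of these windows and in 0.0135% of all, and the E-box was in none (7.37% of all). These are letter matches and not measured sites.

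Other genes of the pathway were counted in the same way. Of 24 further mitochondrial enzymes and carnitine carriers, 7 had wild type ENL at a gene end, 2 Y78A, 20 H3K9ac, 6 H3K9bhb and 1 H3K9cr. Against the shares of all genes (28.6%, 14.6%, 56.4%, 23.8% and 4.49% in that order), the ENL wild type, H3K9bhb and H3K9cr counts are near the background. The highest wild type folds there were at ACADSB, the short and branched chain dehydrogenase (5.95), ECI2, an enoyl-CoA isomerase (5.67), and ACSL3, an acyl-CoA synthetase (5.29), each with H3K9bhb and without Y78A. Of 14 peroxisomal oxidation genes, 11 had H3K9ac, 7 wild type ENL, 6 H3K9bhb, 4 Y78A and 1 H3K9cr, with the highest wild type folds at the transporter ABCD3 (7.91), the racemase AMACR (6.20) and the carnitine transferase CROT (5.68).

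Of 9 genes for ketone body enzymes and carriers, 1 had wild type ENL at a gene end, the carrier SLC16A1 (fold 5.07). At gene ends 4 of them had H3K9ac and 0 had Y78A, H3K9bhb or H3K9cr. With peaks inside the gene counted too, wild type ENL was at 2, H3K9ac at 5, Y78A at 1, H3K9bhb at 1 and H3K9cr at 0. Of 13 regulators, 9 had H3K9ac at a gene end, 5 wild type ENL, 2 H3K9bhb, 2 Y78A and 0 H3K9cr. The highest wild type fold there was at MLYCD (5.11), which removes the CPT1 inhibitor malonyl-CoA. Next were CREB3L3, a fasting transcription factor (4.81), and ACACB, which makes malonyl-CoA (4.74). With peaks inside the gene counted too, H3K9ac was at 11 regulators, wild type ENL at 8, H3K9bhb at 5, H3K9cr at 4 and Y78A at 3. Over all genes the gene-end shares were 56.4% (H3K9ac), 28.6% (wild type), 23.8% (H3K9bhb), 14.6% (Y78A) and 4.49% (H3K9cr). With inside peaks they were 64.8%, 35.9%, 31.2%, 19.1% and 9.34% in that order. The gene-end Y78A count of the regulators is near the share of all genes. With the shared HADHA and HADHB peak counted once, the median of the strongest wild type fold was 5.08 over the 7 loci of the 10 genes with wild type ENL and 5.24 over all genes with such a peak.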

How the data were processed

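FastQC, Bowtie2, MACS2, deepTools and hg38 are named per the submitters' processing notes, with no versions. Their control, duplicate removal and call settings: not given in the sources used here. Each deposited list has the narrowPeak layout, with 1 library each. The deposited fold is the ratio of summit signal to the caller's background, p-value and q-value are deposited as −log10, and the score that the authors deposited follows the −log10 q and was not used. The smallest deposited −log10 q ran from 1.31 (H3K9ac) to 2.05 (wild type), so the lists were not called at 1 threshold, and folds were compared only within a list.

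Peaks on 24 chromosomes and RefSeq protein-coding genes (GRCh38.p14) were used, and 1 bp of overlap was required. Summit fragments and background were recovered from fold, with 1 added to both terms, and Poisson p, within a relative tolerance of 3e-05 (at least 99.98% of peaks of each list). In simulations the overlap code found 100% of 2000 planted peaks, with 0 of 20037 genes differing from bedtools 2.31.1, and recovery gave the right count for 100% of 2000 simulated peaks. All 10 genes were named by rule, with the 3 highest wild type folds of each further list. Genes, lists and alternatives were chosen with earlier results of these data known. Exons and introns were not used here. A hepatocyte marker of the fixed list is not reported here.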

Additional observations from a re-analysis of the deposited data

How the results depend on the processing

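Across 8 alternatives and 16 counts, 91 of 107 values stayed within 1.5 times the reported count, 9 were lower and 7 higher by more. With windows of 2500 bp, sites just outside 1 kb were added: Y78A reached 5 genes with CPT1A and ACADVL (16.4% of all genes; 5 together with wild type, and 5 with inside peaks), H3K9bhb 8 genes with CPT1A, ACADVL and ETFB (26.2% of all genes; 8 together with wild type), and of 11 wild type peaks 5 were overlapped by Y78A and 7 by H3K9bhb. With each list shortened to the 3852 peaks of highest −log10 p, wild type ENL was at 4 genes (ETFB, ETFDH, HADHA and HADHB; also 4 with inside peaks), where 11.9% of all genes had it, Y78A stayed at 3 (10.7%), and H3K9ac was at 6 with inside peaks. At gene ends H3K9ac was then at 6 genes (16.9% of all genes) and H3K9bhb at 4 (11.4%). Wild type with H3K9bhb was at 3 genes and all 3 lists at 2. Of the 3 wild type peaks left, 2 were overlapped by H3K9bhb and 1 by H3K9ac. With −log10 q of at least 5, H3K9cr was at 0 genes, where 1.51% of all genes had it, or at 1 with inside peaks. For combined lists, inside peaks and overlaps, no share over all genes or peaks was computed at these alternative settings. Windows of 500 bp and −log10 q of at least 3 left the same genes with gene-end peaks in every list. No paired analysis was possible because each group has 1 library.

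With 10 genes, 9 loci and 1 library per group, the counts carry no error from culture or library. Y78A, H3K9bhb and wild type lists had similar thresholds and commonest backgrounds (0.841 and 0.937 times wild type), whereas H3K9ac and H3K9cr had looser thresholds and backgrounds of 1.72 and 1.60 times. Summit counts of 16 to 40 outside ETFB give intervals too wide to order wild type peaks of neighbouring strength.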
